A study of Drosophila melanogaster with 12 samples.

Results

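The longest genes of the fly genome were followed in RNA pulled down with the splicing factor Caper: 63 genes, of 17612 in the count table, whose first and last exons lie more than 120 kb apart. The span of a gene was taken as its highest exon end minus its lowest exon start, in the coordinates of genome release 6 that the table lists. Of the 64 genes over 120 kb outside chromosome 4, 63 were kept and 1 was not analysed here. No expression value entered the choice.

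Genes of this size owe their length to introns, since their exons together make up only a small part of the distance that RNA polymerase has to cross. Such introns have to be removed from a transcript that takes long to make, and in *Drosophila* many of the genes that carry them encode adhesion molecules, guidance receptors, RNA-binding proteins and transcription factors used in neurons. Caper is an RNA-binding protein and alternative splicing factor, the fly counterpart of human RBM39. In RNA immunoprecipitation an antibody collects a protein with the RNA bound to it, and the RNA is sequenced beside the starting lysate, called the input. A gene that is higher in the IP than in the input made up a larger share of the pulled-down RNA, and one that is lower made up a smaller share.

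All 12 libraries came from heads of adult flies of 1 genotype, Hsp70Gal4 x UASCaperFlag, in which a heat shock promoter drives Gal4 and Gal4 drives FLAG-tagged Caper. Every group shared this transgene and the treatment, a heat shock at 37 °C for 2 h followed by 30 °C overnight, and the promoter is not limited to neurons. The groups were the Caper IP, made with a rabbit antibody against Caper (3 libraries, numbered 1 to 3), the Caper input (3 libraries), the FLAG IP, made with a mouse antibody against the tag (3 libraries, numbered 4 to 6), and the FLAG input (3 libraries). No mock IP was analysed here, so a level in an IP was set against the input alone. The labels do not say whether the libraries of a group came from separate collections of flies, and p-values therefore measure the spread between these libraries, which may be technical.

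Gene counts summed to between 20431211 and 34264177 per IP library and between 9615414 and 12579559 per input library. In the IPs 21.7 to 40.9% of alignments were set aside because they mapped to several places, against 71.7 to 75.2% in the inputs, and the part of this gap in the results was not tested. Of 21 head marker genes, 20 were matched by symbol and all 20 were detected in every input, among them the photoreceptor opsin *ninaE* at 20536 to 25182 CPM (counts scaled to the size of the library), the synaptic gene *nSyb* at 1648 to 1848 CPM and the glial gene *repo* at 44.7 to 58.0 CPM. In whole heads, fewer cells of a type and less RNA per cell cannot be told apart.

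The 63 genes spanned a median of 145446 bases, against 1720 bases for all genes of the table. Their exons added up to a median of 7791 bases, against 1425.5 bases for all genes, in 15 exon blocks against 3. The longest stretch between exon blocks had a median of 55809 bases, against 71 bases. Introns took up the rest, from 47.5% of the span in *dpy*, a giant extracellular matrix protein with 71820 exon bases, to 99.7% in *Myo81F*, a gene of the myosin family. *Myo81F* was the longest gene of the set at 1966 kb (FBgn0267431, chr3R:567076-2532932, plus strand), with one gap of 268107 bases between exons. It was followed by *Pzl*, a relative of the mechanosensitive channel Piezo, at 709 kb, by *lovit*, a transporter of photoreceptor terminals, at 434 kb and by *CG17684* at 396 kb.

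Of the 63 genes, 58 are protein coding and 5 are long non-coding RNAs. The X chromosome held 18 of them, chromosome arms 3L, 3R, 2L and 2R held 14, 12, 8 and 8, and the Y chromosome held 3. By position along the chromosome, 16 lay in the pericentric part of an arm, close to the centromere, 44 lay further out on the arms and 3 lay on the Y chromosome. Pericentric genes combined long spans with few exon bases, as the plot of span against exon length shows. At least 1 other gene lay inside the span of 54 of the 63. On the same strand, 11 genes shared exon bases with another gene, and reads in such shared stretches were not counted for either. The share was largest for *CG46244*, whose exon bases all lie in exons of *Lar*, and for *CG15465*, whose exon bases all lie in exons of *rg*. In turn 83.6% of the exon bases of *Lar* and 94.4% of those of *rg* were shared, so both genes were measured on what remained.

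**Figure D1:**
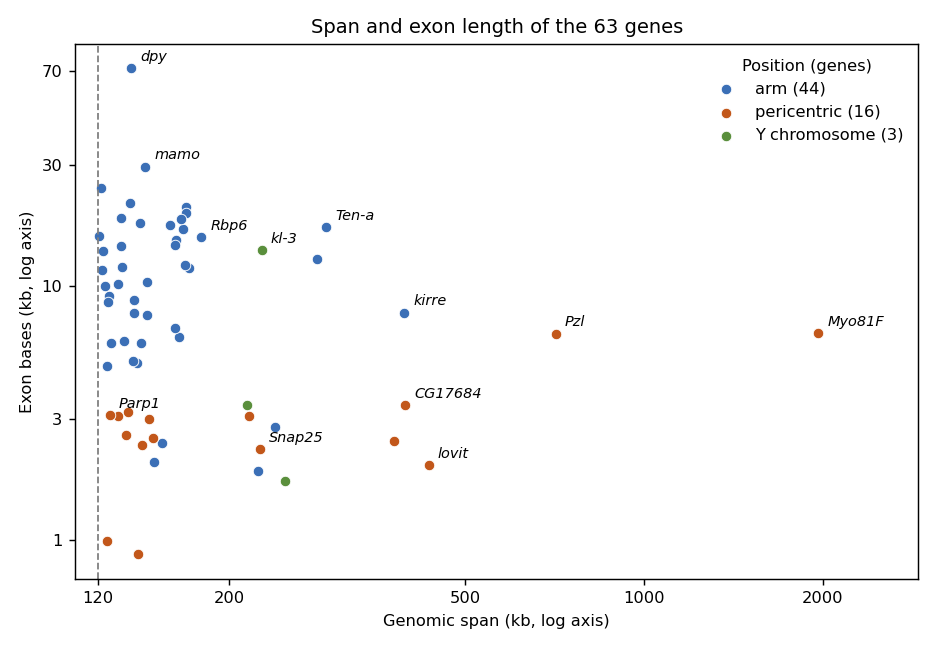
Genomic span (x axis, kb, log axis) against exon bases (y axis, kb, log axis) for the 63 genes, coloured by position on the chromosome, with the dashed line at 120 kb. Pericentric genes lie below 7 kb of exon bases, and the 71820 exon bases of dpy stand above all others.

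Enough counts for a test were present for 53 of the 63 genes. The other 10 had few or no counts. *kl-3*, an axonemal dynein of the Y chromosome, had 0 to 9 counts per library, *Ppr-Y* had 0 in all 12 libraries and *WDY*, likewise on the Y chromosome, had 0 or 1. *Pzl* had 0 to 13 counts, and *AGO3*, an Argonaute protein of the piRNA pathway, had 3 to 17. *CG46244* and *CG15465*, which share their exon bases in full, had 0 in every library. The remaining 3 were *lncRNA:CR44357*, *lncRNA:CR32773* and *lncRNA:CR44999*, none of which passed 12 counts. Of the exon bases of *lncRNA:CR44999*, 91.8% were shared with *Myc*. For this gene, *CG46244* and *CG15465* a low count does not give the level in heads, since reads in shared stretches were not counted.

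The levels of the 53 genes in the inputs spread widely, from 0.998 to 1745 CPM with a median of 126 CPM. Per kb of exon, *rdgA*, the diacylglycerol kinase of phototransduction, stood highest at 127 ± 7.69 CPM per kb over the 6 inputs (mean ± SD). *Snap25*, a SNARE protein of synaptic vesicle fusion, followed at 105 ± 8.07 CPM per kb, and *shep*, an RNA-binding protein of neurons, at 95.3 ± 3.96 CPM per kb. The libraries of *Snap25* overlapped those of *shep* and stayed below those of *rdgA*. The longest gene, *Myo81F*, was low at 0.929 ± 0.222 CPM per kb. As a share of all gene counts, the 63 genes together took 1.26 to 1.51% in the Caper IPs, against 1.34 to 1.49% in the Caper inputs, and 1.498 to 1.65% in the FLAG IPs, against 1.29 to 1.495% in the FLAG inputs. The Caper ranges overlapped and the FLAG ranges nearly met.

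Gene by gene, the very long genes were more often lower than higher in the Caper IP. With the edgeR quasi-likelihood test and an adjusted p below 0.05, 12 of the 53 lay below the input level in the Caper IP and 2 lay above it. The background was 7.53% of 10778 genes tested called lower and 6.33% called higher, so the 22.6% of long genes called lower stood above it and the 3.77% called higher below it. The median log2 fold change of the 53 was -0.28, against 0.03 for all genes tested, and 39 of the 53 lay below 0. At an unadjusted p below 0.05, 25 were lower and 5 higher, where 30.3% of all genes passed in either direction. With IP and input paired by number, as a replicate block, 25 of the 53 were lower and 5 higher, on a background of 14.8% and 15.8%. The count of lower genes depended on single libraries, being 20 without Caper IP 1, 8 without Caper IP 3, 5 without Caper input 3, 4 without Caper IP 2, 3 without Caper input 1 and 2 without Caper input 2. The count of higher genes was 2 without Caper IP 1 and 0 without each of the other 5.

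The FLAG IP gave more calls in both directions. There 23 of the 53 genes were lower than in the input (43.4%, on a background of 20.8% of 10476 genes tested) and 9 were higher (17%, on a background of 19.5%). The median log2 fold change was -0.16, against 0.00 for all genes tested. With the replicate block 25 were lower and 12 higher, on a background of 29.5% and 29.6%, and at an unadjusted p below 0.05 the counts were 25 and 11, where 49.8% of all genes passed in either direction. Without FLAG input 6 the count of lower genes was 13. With each library's trend on exon length added to the fit as an offset, 26 genes were lower and 8 higher in the FLAG IP, and 9 lower and 3 higher in the Caper IP. The background in that fit was 23.9% lower and 17.7% higher for FLAG, and 5.86% and 4.67% for Caper.

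In both IPs 7 genes were called lower (background 6.52%) and 2 were called higher (background 5.28%), and no gene was called in opposite directions. With the pairs as a block these counts were 19 and 5, on a background of 13.2% for each. In 26 of the 53 genes every one of the 6 IP libraries lay below the input of its own number (background 22.2%), and in 8 genes every one lay above (background 24.5%). The 3 Caper IP libraries lay below all 3 inputs without overlap for 26 genes (background 17.5%) and above them for 6 (background 19.1%). For the FLAG IP the counts were 25 below (background 27.3%) and 10 above (background 26.0%). Pair by pair, the median of the 53 genes was -0.27, -0.35 and -0.25 in Caper pairs 1 to 3 and -0.11, -0.39 and -0.21 in FLAG pairs 4 to 6, against medians of all genes between 0.00 and 0.06.

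**Figure D2:**
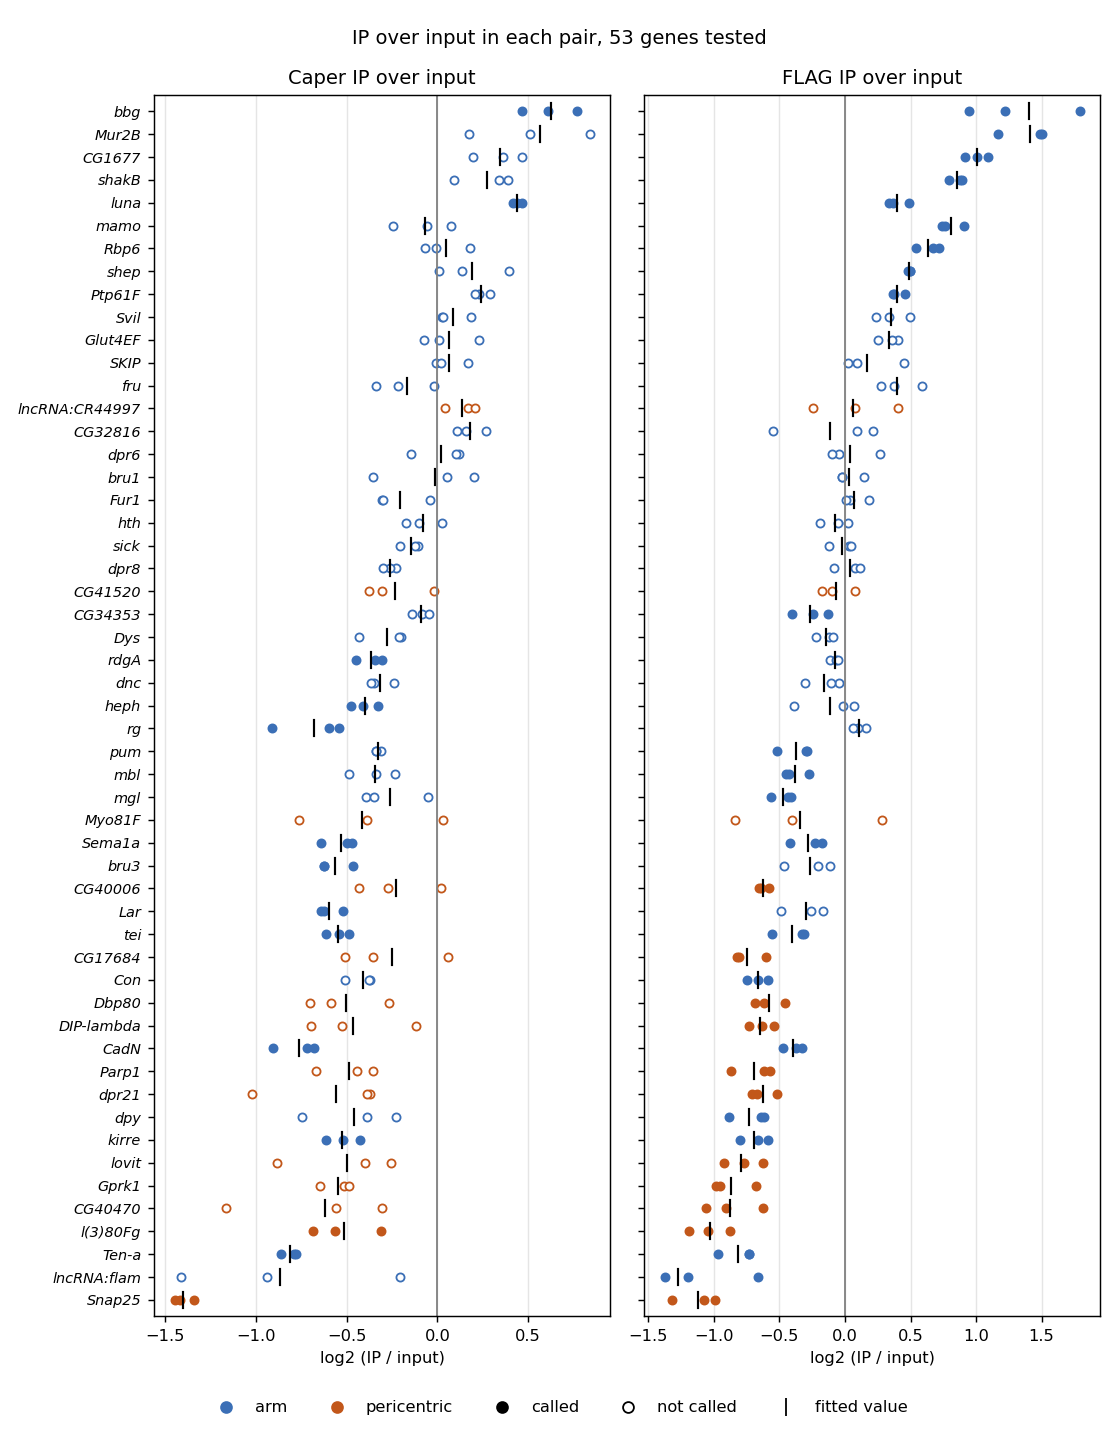
Log2 ratio of IP over input (x axis) in each of the 3 pairs of both antibodies for the 53 genes tested, ordered by their mean over both IPs. Points are pairs, filled where the gene was called, bars are fitted values and colours give the position; 39 of 53 Caper values and 34 of 53 FLAG values lie below 0.

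*Snap25* (FBgn0011288, chr3L:24074180-24299205, plus strand) fell furthest of the genes called in both IPs. It had 93.8, 94.5 and 103 CPM in the Caper IPs, against 256, 253 and 260 CPM in their inputs, and 103, 92.5 and 113 CPM in the FLAG IPs, against 216, 231 and 225 CPM in theirs. Every IP library was below every input library by more than the spread of either group. The log2 fold change was -1.40 ± 0.07 in the Caper IP (SE, edgeR adjusted p = 3.11e-04), a 2.64-fold lower level, and -1.12 ± 0.10 in the FLAG IP (edgeR adjusted p = 3.05e-04), a 2.18-fold lower level.

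Another pericentric gene, *l(3)80Fg* (FBgn0287183, chr3L:25798441-26014112, minus strand), was lower in both IPs as well. Its levels were 86.5, 97.3 and 113 CPM in the Caper IPs, against 139, 144 and 140 CPM in the inputs, and 71.8, 55.9 and 56.6 CPM in the FLAG IPs, against 132.3, 115.4 and 129.7 CPM in the inputs. Neither comparison overlapped, and the FLAG change of -1.03 ± 0.12 (edgeR adjusted p = 8.66e-04) was the larger beside -0.51 ± 0.11 for Caper (edgeR adjusted p = 0.0293). The difference between both changes did not pass the test without the block (edgeR adjusted p = 0.154) and passed with it (edgeR adjusted p = 0.0225). Its Caper call was lost without Caper IP 2 or any 1 of the Caper inputs (edgeR adjusted p up to 0.136).

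The cell surface recognition and guidance genes made up the largest role group, with 13 of 13 tested. With the Caper antibody 6 of them fell (46.2%, against 7.53% of all genes tested) and 1 rose (7.69%, against 6.33%), with a median log2 fold change of -0.53. With FLAG 9 fell (69.2%, against 20.8%) and 1 rose (7.69%, against 19.5%), with a median of -0.40. The counts of the other role groups are small and, without block or exon length in the fit, stand against these same shares of all genes. With exon length and the block in the fit, 14.2% of all genes fell and 15.2% rose for Caper, and 32.6% and 26.6% for FLAG. The 1 that rose in each IP was *bbg*, a PDZ-domain scaffold protein that is not itself a receptor.

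*Ten-a*, a teneurin that matches synaptic partners (FBgn0267001, chrX:12043698-12335214, plus strand), lay well below its inputs. It had 275, 252 and 253 CPM in the Caper IPs, against 477, 458 and 433 CPM in the inputs, and 239, 263 and 265 CPM in the FLAG IPs, against 398, 515 and 441 CPM in the inputs. No IP library reached the level of an input library. Its log2 fold changes were close to each other, -0.81 ± 0.08 for Caper (edgeR adjusted p = 0.00437) and -0.82 ± 0.12 for FLAG (edgeR adjusted p = 0.00177).

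*CadN*, the N-cadherin of axons and synapses (FBgn0015609, chr2L:17647053-17778340, minus strand), had 198, 170 and 188 CPM in the Caper IPs, against 325, 318 and 300 CPM in the inputs, a change of -0.76 ± 0.09 (edgeR adjusted p = 0.0062). In the FLAG IPs it had 228, 258 and 250 CPM, against 286, 357 and 325 CPM in the inputs, a change of -0.40 ± 0.11 (edgeR adjusted p = 0.0243). The groups did not overlap for either antibody. Its Caper call was lost without Caper input 2 (edgeR adjusted p = 0.0557) and its FLAG call without FLAG IP 4, FLAG IP 6, FLAG input 5 or FLAG input 6 (edgeR adjusted p up to 0.0859).

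*kirre*, an immunoglobulin-family adhesion protein of myoblast fusion (FBgn0028369, chrX:2740384-3134532, plus strand), had 36.6, 34.2 and 35.1 CPM in the Caper IPs, against 56.0, 46.0 and 50.3 CPM in the inputs, and 30.3, 32.5 and 32.5 CPM in the FLAG IPs, against 45.6, 51.5 and 56.7 CPM in the inputs. Both IPs lay below all of their inputs. The log2 fold changes were -0.53 ± 0.10 (edgeR adjusted p = 0.0221) and -0.69 ± 0.11 (edgeR adjusted p = 0.0023). *tei* (FBgn0000633, chr2R:13623044-13749367, plus strand) changed by -0.55 with Caper and -0.40 with FLAG (edgeR adjusted p = 0.011 and 0.013), and *Sema1a*, a transmembrane semaphorin of axon guidance, by -0.53 and -0.28 (edgeR adjusted p = 0.021 and 0.0479). The Caper calls of *kirre* and *Sema1a* were lost without any 1 Caper library other than Caper IP 1 (edgeR adjusted p up to 0.0884 and 0.0931), and that of *tei* without Caper IP 2, Caper input 1 or Caper input 2 (edgeR adjusted p up to 0.0753). The FLAG call of *Sema1a* was lost without any 1 FLAG library other than FLAG input 4, and with another normalisation or count filter (edgeR adjusted p up to 0.128).

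Among the other surface genes, chosen here after their values were seen, *Lar*, a receptor tyrosine phosphatase, fell in the Caper IP by 0.60 on the log2 scale (edgeR adjusted p = 0.0178). *Con*, the leucine-rich adhesion protein connectin, was at -0.67 in the FLAG IP (edgeR adjusted p = 0.00142), and the immunoglobulin-domain proteins *DIP-lambda* and *dpr21* were at -0.65 and -0.63 (edgeR adjusted p = 0.00926 and 0.0177). With the replicate block *Lar* also passed in the FLAG IP, at -0.30 (edgeR adjusted p = 0.0217, and 0.0942 without it), and *Con* and *dpr21* in the Caper IP, at -0.41 and -0.56 (edgeR adjusted p = 0.00716 and 0.0248, and 0.114 and 0.137 without it). Their relative *dpr8* was at -0.26 in the Caper IP, which passed only with the block (edgeR adjusted p = 0.0855, and 0.0282 with it), and at 0.04 in the FLAG IP. *dpr6*, at 0.02 and 0.04, did not pass in either IP.

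*bbg* (FBgn0087007, chr3L:14412828-14536276, minus strand) went the other way. It had 121, 166 and 156 CPM in the Caper IPs, against 87.3, 97.5 and 102 CPM in the inputs, and 203, 200 and 425 CPM in the FLAG IPs, against 87.3, 103.6 and 122.6 CPM in the inputs. All IP libraries were above all inputs of their antibody, but FLAG IP 6 was far above the other 2 FLAG IPs. The log2 fold change was 0.63 ± 0.14 in the Caper IP (edgeR adjusted p = 0.0334) and 1.40 ± 0.31 in the FLAG IP (edgeR adjusted p = 0.00971). The Caper call was lost without any 1 Caper library other than Caper IP 1, with exon length in the fit and in the fit of all 12 libraries (edgeR adjusted p up to 0.164).

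**Figure D3:**
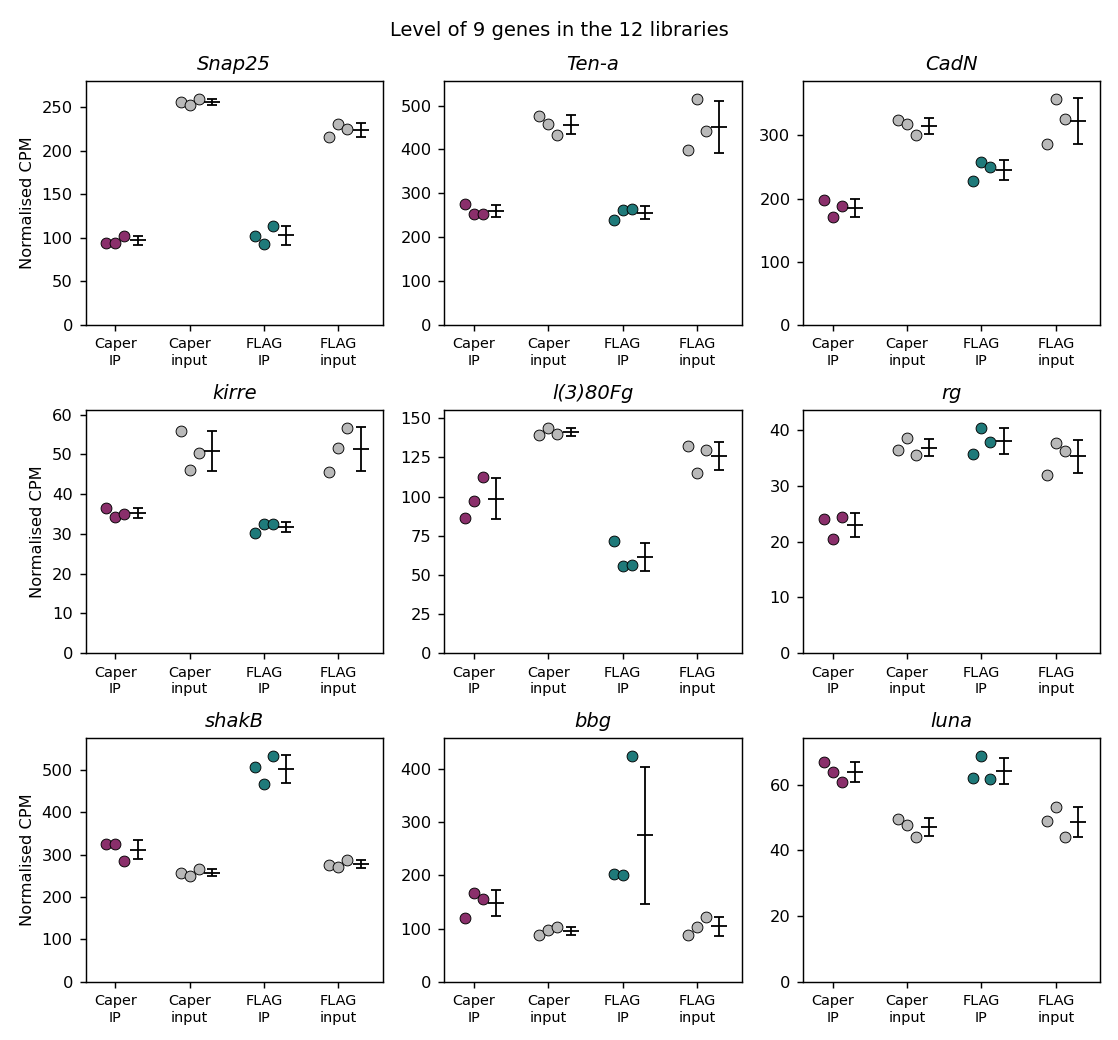
Normalised CPM (y axis, from 0) of 9 of the genes in the Caper IP, Caper input, FLAG IP and FLAG input libraries. Points are libraries and bars give the mean ± SD of 3; Snap25, Ten-a, CadN, kirre and l(3)80Fg lie lower in both IPs, bbg and luna lie higher in both, and rg lies lower in the Caper IP alone.

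The list of RNA-binding and RNA-processing proteins held 7 of the genes, all of which were tested. With the Caper antibody 2 fell (28.6%, against 7.53% of all genes tested) and none rose, with a median log2 fold change of -0.33. With the replicate block 4 fell (57.1%, against 14.8%). No member rose at an unadjusted p below 0.05 or with DESeq2 either. With exon length in the fit the median was -0.14, 1 fell, and 2 were higher at an unadjusted p below 0.05; with the block added, 2 were called higher and 2 lower. With FLAG 2 rose and 2 fell (28.6% each, against 19.5% and 20.8% of all genes), with a median of -0.11. *shep* (FBgn0052423, chr3L:5155821-5277944, minus strand) had 1483, 1150 and 1130 CPM in the Caper IPs, against 1126, 1046 and 1125 CPM in the inputs, a change of 0.19 ± 0.13 that did not pass (edgeR adjusted p = 0.391). It had 1475, 1606 and 1518 CPM in the FLAG IPs, against 1045, 1153 and 1079 CPM in the inputs, a rise of 0.49 ± 0.10 (edgeR adjusted p = 0.00802) without overlap between the groups.

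*Rbp6*, a protein of the Musashi family (FBgn0260943, chr3L:17058774-17238212, minus strand), behaved in the same manner in the FLAG IP, with 1570, 1836 and 1750 CPM against 957, 1262 and 1101 CPM in the inputs (log2 fold change 0.64 ± 0.14, edgeR adjusted p = 0.00894). In the Caper IP it had 1340, 994 and 1010 CPM, against 1181, 1001 and 1059 CPM in the inputs, and the groups overlapped (0.05 ± 0.15, edgeR adjusted p = 0.872, below 0 without Caper IP 1). *mbl*, the muscleblind splicing factor, had 773, 752 and 695 CPM in the FLAG IPs, against 937, 1030 and 933 CPM in the inputs, and fell by 0.39 on the log2 scale (edgeR adjusted p = 0.019, lost without FLAG IP 6, FLAG input 5 or FLAG input 6 at up to 0.0629). In the Caper IP its change was -0.35 ± 0.12 (edgeR adjusted p = 0.0967, and 0.0236 with the replicate block).

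Chosen after their values were seen, *bru3*, a Bruno-type splicing and translation regulator, and *heph*, the polypyrimidine tract-binding protein, were the 2 genes of this list that fell in the Caper IP, with -0.57 and -0.40 (edgeR adjusted p = 0.0272 and 0.0351). The translational repressor *pum* fell in the FLAG IP, at -0.38 (edgeR adjusted p = 0.0223). With the replicate block *pum* also passed in the Caper IP, at -0.33 (edgeR adjusted p = 0.0157, and 0.0647 without it), and *bru3* in the FLAG IP, at -0.27 (edgeR adjusted p = 0.0124, and 0.0943 without it). *bru1*, another Bruno gene, was near 0 in both IPs, at -0.01 and 0.03.

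Of the 4 genes in the signalling list, 2 were lower in the Caper IP (4 where replicate number was a block), with a list median of -0.34. None passed in the FLAG IP, where the median was -0.11. There no member passed at an unadjusted p below 0.05 or with DESeq2, while 2 fell when exon length was added to the fit. *rdgA* had 1375, 1430 and 1320 CPM in the Caper IPs, against 1697, 1816 and 1804 CPM in the inputs, without overlap (-0.37 ± 0.09, edgeR adjusted p = 0.0452), and 1555, 1519 and 1807 CPM in the FLAG IPs, against 1683, 1592 and 1879 CPM in the inputs, with overlap (-0.08 ± 0.12, edgeR adjusted p = 0.641). *dnc*, the cAMP phosphodiesterase of learning, changed by -0.31 ± 0.13 in the Caper IP (edgeR adjusted p = 0.16, and 0.0196 with the replicate block). *Dys*, the fly dystrophin, changed by -0.28 ± 0.11 (edgeR adjusted p = 0.14, and 0.037 with the block), a value that was 0.01 once exon length was in the fit. Neither of the 2 Caper calls of this list passed with exon length in the fit, and that of *rdgA* was also lost without any 1 Caper library other than Caper IP 1 and with other count filters (edgeR adjusted p up to 0.44, reached with exon length in the fit).

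The list of transcription and chromatin regulators held 4 of the genes, all of which were tested. In the FLAG IP 2 rose and none fell, at a median of 0.40 (1 rose and the median was 0.24 with exon length in the fit), while in the Caper IP 1 rose, none fell and the median was -0.07, or 0.18 with exon length in the fit. Without exon length in the fit, no member fell at an unadjusted p below 0.05 or with DESeq2 in either IP. With exon length and the block, 3 rose and 1 fell in the FLAG IP, the 1 at -0.25. *luna*, a Krüppel-like zinc finger protein (FBgn0040765, chr2R:10977956-11116378, minus strand), rose in both. It had 67.0, 63.8 and 60.8 CPM in the Caper IPs, against 49.5, 47.7 and 44.0 CPM in the inputs, and 61.9, 68.7 and 61.8 CPM in the FLAG IPs, against 48.9, 53.2 and 44.0 CPM in the inputs, without overlap in either (log2 fold changes 0.44 ± 0.09 and 0.40 ± 0.10, edgeR adjusted p = 0.0243 and 0.0176). The Caper call was lost without any 1 Caper library other than Caper IP 1 (edgeR adjusted p up to 0.116), and the FLAG call without FLAG input 4 or FLAG input 6 and with exon length in the fit (edgeR adjusted p up to 0.0973).

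*mamo*, a BTB zinc finger protein (FBgn0267033, chrX:13846116-13990527, minus strand), had 1060, 1304 and 1269 CPM in the FLAG IPs, against 623, 779 and 675 CPM in the inputs, a rise of 0.81 ± 0.13 (edgeR adjusted p = 0.00311). In the Caper IP it had 773, 626 and 584 CPM, against 733, 651 and 693 CPM in the inputs, and the groups overlapped (-0.07 ± 0.13, edgeR adjusted p = 0.778, but 0.28 with exon length in the fit). *fru*, the transcription factor of male courtship circuits, varied between pairs. Its FLAG IP levels of 184, 277 and 219 CPM stood against 142, 229 and 145 CPM in the inputs, overlapped and did not pass (edgeR adjusted p = 0.192), and each pair on its own was higher in the IP, and the edgeR adjusted p was 3.79e-04 with the replicate block. *hth*, a homeodomain protein, was at -0.08 in the Caper IP (0.08 with exon length in the fit) and -0.07 in the FLAG IP. Without exon length in the fit it did not pass in either, with or without the block.

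The 1 gene in the channel and receptor list was *shakB*, an innexin of electrical synapses (FBgn0085387, chrX:20761071-20927050, minus strand). It had 508, 468 and 533 CPM in the FLAG IPs, against 276, 270 and 287 CPM in the inputs, and 325, 326 and 285 CPM in the Caper IPs, against 256, 249 and 267 CPM in the inputs. Both IPs lay above their inputs, the FLAG IP by more. The FLAG change was 0.86 ± 0.09 (edgeR adjusted p = 5.69e-04), while the Caper change of 0.28 ± 0.09 did not pass (edgeR adjusted p = 0.0823). With exon length in the fit the Caper change was 0.53 and was called higher, with and without the block. Among the 4 genes in the cytoskeletal list only *Myo81F* was testable. It had 4.48, 4.39 and 5.68 CPM in the Caper IPs, against 4.39, 7.52 and 7.46 CPM in the inputs, and 5.51, 3.84 and 4.10 CPM in the FLAG IPs, against 4.52, 6.99 and 5.46 CPM in the inputs, so that its groups overlapped for both antibodies and neither change passed (edgeR adjusted p = 0.327 and 0.274). With exon length and the block in the fit, *Myo81F* was called lower in the FLAG IP, at -0.53.

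Whether both antibodies moved a gene alike was tested on the difference itself, FLAG change minus Caper change. Of the 53 genes, 2 had a higher change in the FLAG IP (background 0.817% of 11012 genes tested) and none a lower one (background 0.145%). At an unadjusted p below 0.05 the counts were 8 higher and 2 lower, beside 926 and 844 of the 11012 genes. DESeq2 called 4 higher and 0 lower, beside 433 and 156 of the 11012. With the replicate block the test called 9 higher and 1 lower, on a background of 6.62% and 5.44%. The 9 were *CadN*, *bbg*, *Rbp6*, *fru*, *mamo*, *rg*, *shakB* and, chosen after their values were seen, *Mur2B* and *CG1677*, and the 1 was *l(3)80Fg*. The count of higher genes was 5 without Caper IP 1, 2 without FLAG IP 4, 1 without FLAG input 5 and 0 without each of the other 9 libraries.

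The first of the 2 was *rg* (rugose), an anchor protein for protein kinase A (FBgn0266098, chrX:5085759-5254864, plus strand). It had 35.7, 40.4 and 37.9 CPM in the FLAG IPs, against 31.9, 37.6 and 36.2 CPM in the inputs, which overlapped, and 24.0, 20.5 and 24.4 CPM in the Caper IPs, against 36.3, 38.5 and 35.5 CPM in the inputs, which did not. The Caper change was -0.68 ± 0.10 (edgeR adjusted p = 0.0122, lost without Caper input 1 or Caper input 2 and with exon length in the fit at up to 0.0844), the FLAG change 0.11 ± 0.10 (edgeR adjusted p = 0.434, and -0.02 with exon length in the fit), and their difference 0.79 ± 0.14 (edgeR adjusted p = 0.0286). For *rg* the fit with exon length used all 20508 annotated bases, most of which are shared and gave no counts. That fit therefore does not check the length that was measured. The other was *shakB*, with a difference of 0.58 ± 0.12 (edgeR adjusted p = 0.0457). With exon length in the fit neither passed, and the 1 gene called was *dpy*, with the lower change in the FLAG IP. *mamo* had the larger difference of 0.88 ± 0.19 but a wider spread, and did not pass (edgeR adjusted p = 0.0623), while it passed with the block (edgeR adjusted p = 0.00247) and was among the 4 genes called by DESeq2.

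**Figure D4:**
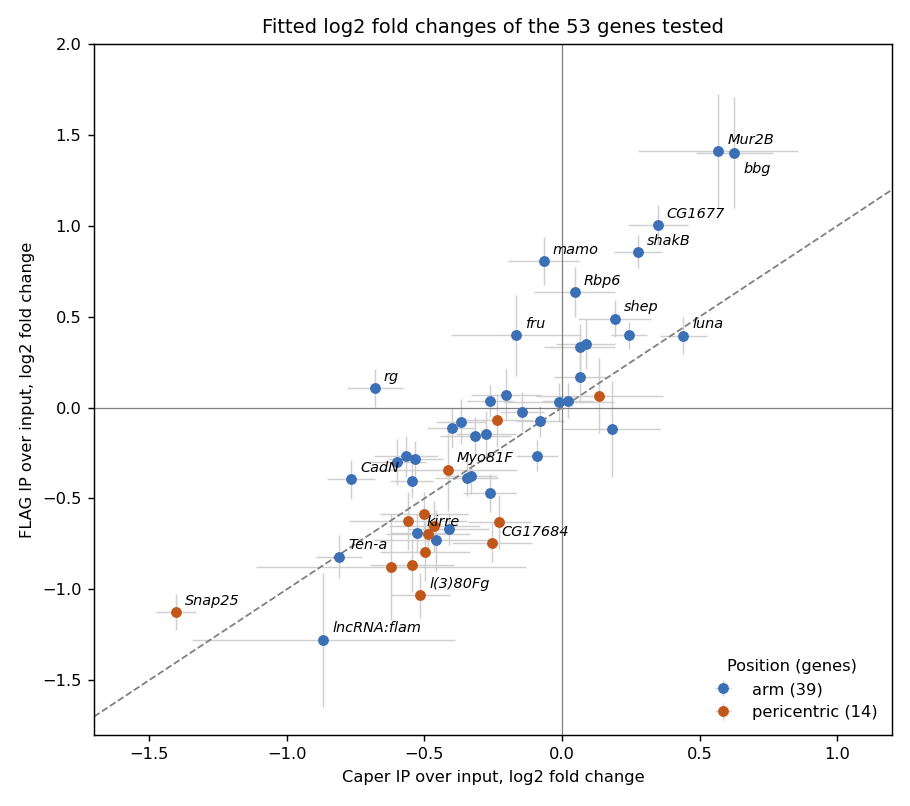
Fitted log2 fold change in the Caper IP (x axis) against that in the FLAG IP (y axis) for the 53 genes tested, with standard errors as grey bars and equality as the dashed line. Snap25 lies lowest in the Caper IP at -1.40, rg lies left of the line at -0.68 and 0.11, and 14 pericentric genes sit at or below 0.14 in both.

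The set was also split by position on the chromosome, after the positions were seen. Of the 14 pericentric genes tested, 11 were lower in the FLAG IP (78.6%, against 20.8% of all genes) and none was higher, with a median log2 fold change of -0.67. None was higher at an unadjusted p below 0.05 or with DESeq2. In the Caper IP, 2 of these 14 were lower (14.3%, against 7.53% of all genes) and none higher, with a median of -0.49, and 8 were lower with the replicate block (57.1%, against 14.8%). Again none was higher at an unadjusted p below 0.05 or with DESeq2, which called 5 lower (35.7%, against 10.5%). Of the 39 genes further out on the arms, 12 were lower (30.8%, against 20.8% of all genes) and 9 higher (23.1%, against 19.5%) in the FLAG IP at a median of -0.07, which was -0.23 with exon length in the fit. For Caper 10 were lower (25.6%, against 7.53%) and 2 higher (5.13%, against 6.33%) at a median of -0.20. With exon length in the fit the Caper median of the arm genes was 0.01, with 6 lower (15.4%, against 5.86% of all genes) and 3 higher (7.69%, against 4.67%). With the block added 11 were lower and 11 higher (28.2% each, against 14.2% and 15.2%). Below the input in all 6 pairs were 9 of 14 pericentric genes and 17 of 39 arm genes, and the 8 genes above the input in all 6 pairs were all on the arms.

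Shorter pericentric genes leaned the same way, with smaller median changes in both IPs and a smaller share called lower in the FLAG IP. In the Caper IP the share called lower was not smaller, at 16.7% beside 14.3% of the long pericentric genes. Of those spanning at most 120 kb, 51 of 141 tested (36.2%) were lower in the FLAG IP and 10 were higher, with a median of -0.26, and 24 of 144 (16.7%) were lower in the Caper IP and 5 higher, with a median of -0.17. Those nearest in span, of 60 to 120 kb with 7 tested, had a Caper median of 0.02, with 1 lower (14.3%) and 0 higher. Their FLAG median was -0.53, with 2 lower (28.6%) and 0 higher. The difference between long and short pericentric genes was not tested.

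The named pericentric genes include 2 of the longest. *lovit* had 17.05, 18.7 and 14.7 CPM in the FLAG IPs, against 26.4, 35.6 and 25.1 CPM in the inputs, and 27.9, 19.0 and 25.4 CPM in the Caper IPs, against 36.7, 35.1 and 30.3 CPM in the inputs. No IP library overlapped its inputs, and the change passed in the FLAG IP (-0.79 ± 0.16, edgeR adjusted p = 0.00787) but in the Caper IP only with the block (-0.50 ± 0.16, edgeR adjusted p = 0.0911, and 0.0295 with it). *CG17684* had 28.9, 23.5 and 26.3 CPM in the FLAG IPs, against 43.9, 41.7 and 46.2 CPM in the inputs, a change of -0.74 ± 0.11 (edgeR adjusted p = 0.00186), and 30.4, 32.3 and 43.2 CPM in the Caper IPs, against 43.3, 41.3 and 41.5 CPM in the inputs, where 1 IP library reached the input range (edgeR adjusted p = 0.301). Chosen after their values were seen, *Gprk1*, a kinase of G protein-coupled receptors, *Parp1*, the poly(ADP-ribose) polymerase, and *Dbp80*, a DEAD-box helicase, were at -0.87, -0.70 and -0.58 in the FLAG IP (edgeR adjusted p = 0.00331, 0.00254 and 0.00754). In the Caper IP they were at -0.55, -0.49 and -0.50 and passed only with the block (edgeR adjusted p = 0.0038, 0.0129 and 0.0147 with it).

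Long genes also have more exon bases, so they were set beside shorter genes of similar exon length and input level, within the 10th to 90th percentile of the 53 genes for both. For Caper, 9 of 33 long genes in this window were lower (27.3%) and 2 higher, at a median of -0.25, against 343 of 3418 shorter genes lower (10%) and 275 higher, at a median of 0.02. In the FLAG IP 14 of 33 were lower (42.4%) and 6 higher, at a median of -0.16, against 602 of 3493 shorter genes lower (17.2%) and 1047 higher, at a median of 0.10. In a narrower window, of the 25th to 75th percentile, the medians differed by -0.14 for both antibodies. In the wider one they differed by -0.27 and -0.26, and within single pairs by -0.34 to -0.31 for Caper and -0.44 to -0.16 for FLAG. The windows did not equalise exon length fully, since the median was 7853 bases in the long genes, against 4140 bases (Caper) and 4099 bases (FLAG) in the shorter ones. With windows set on the long genes of 1 position at a time, the difference was -0.60 and -0.68 for 8 pericentric genes and -0.17 and -0.23 for 25 arm genes. The shorter genes in these windows came from all positions (3029 and 3123 genes beside the pericentric ones), so span and position were not separated.

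Across span classes in these windows the Caper IP showed a gradual order. The median log2 fold change was 0.08 up to 10 kb (1953 genes), -0.04 from 10 to 30 kb, -0.10 from 30 to 60 kb, -0.13 from 60 to 120 kb and -0.25 above 120 kb, and the share called lower was 5.94%, 12.9%, 20.1%, 21.1% and 27.3%. In the FLAG IP the 4 shorter classes had medians of 0.13, 0.08, 0.06 and 0.15 with 16.2 to 18.9% called lower, and the class above 120 kb stood apart at -0.16 and 42.4%. Among the 53 genes, the log2 fold change ran against span with a Spearman correlation of -0.33 for Caper and -0.38 for FLAG, and among the 39 arm genes of -0.31 and -0.28. These are descriptions across genes, which share the same libraries. Over all genes tested the correlation was 0.03 (n = 10778) and 0.18 (n = 10476).

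**Figure D5:**
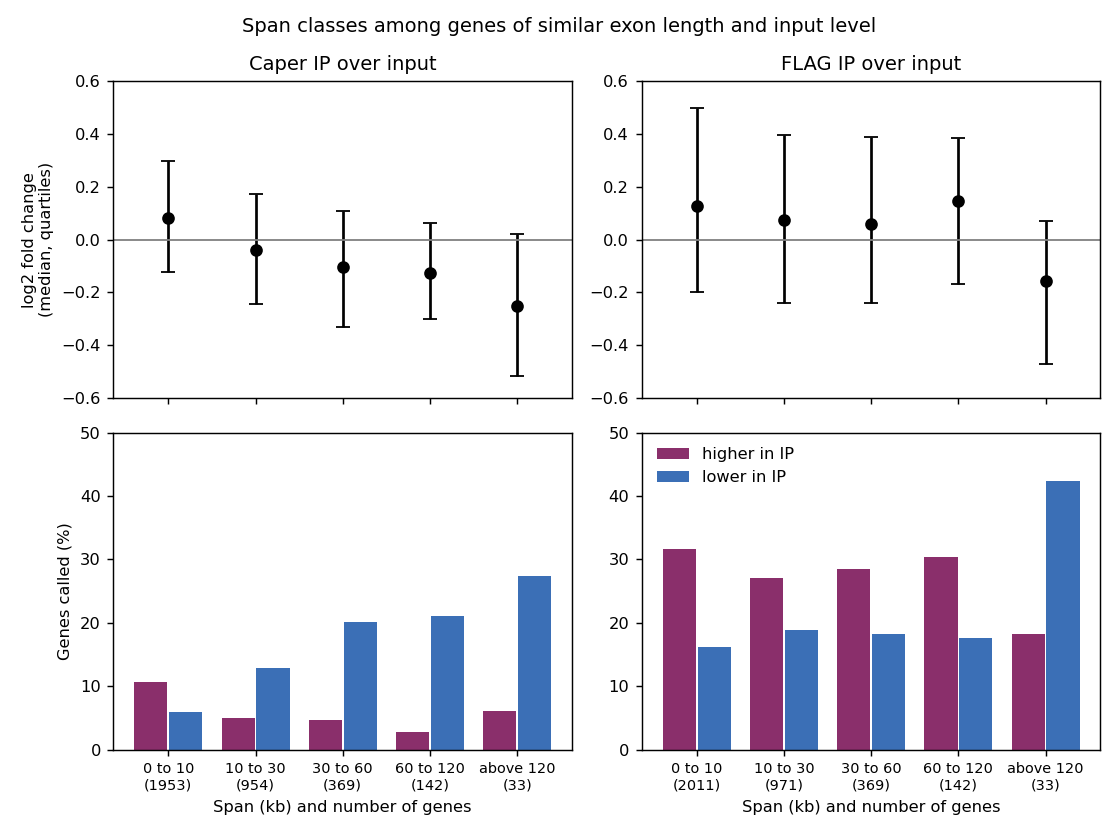
Upper panels, median log2 fold change (y axis, bars from the lower to the upper quartile) by span class, for genes within the same windows of exon length and input level. Within the Caper windows, median exon length is 3429 bases up to 10 kb of span and 7853 bases above 120 kb. Lower panels, percent of genes called higher and lower in the IP, from 0; the class above 120 kb holds 33 genes, with 27.3% of them lower for Caper and 42.4% for FLAG.

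Just inside the limit, *Glut4EF*, the fly Glut4 enhancer factor, at 120.683 kb and *Svil*, the actin-binding protein supervillin, at 121.571 kb did not pass in either IP, with 0.06 and 0.09 in the Caper IP and 0.33 and 0.35 in the FLAG IP. The Caper values of both fell below 0 without Caper IP 1. With the replicate block both passed in the FLAG IP (edgeR adjusted p = 0.0013 and 0.00202). Just outside it, *jing*, a zinc finger transcription factor, at 119.786 kb and *CG43867* at 119.758 kb had -0.15 and -0.18 in the Caper IP and 0.41 and 0.32 in the FLAG IP, where both were called (edgeR adjusted p = 0.0274 and 0.0168). These calls were lost in 4 and 5 alternatives, in which adjusted p reached 0.106 and 0.197. The limit itself mattered, in that over 60 kb the median in the FLAG IP was 0.07 (222 genes tested). Over 200 kb it was -0.74, with only 9 genes tested. Most of these 9 are pericentric, among them *Myo81F*, *lovit*, *CG17684* and *Snap25*, while *kirre* and *Ten-a* lie on the arms. All pericentric genes of the set had a FLAG median of -0.67. Whether span apart from position moved the median was not tested.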

How the data were processed

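RNA immunoprecipitation sequencing was analysed in 12 libraries from heads of adult *Drosophila melanogaster*. The authors trimmed reads with fastp 0.20.1, checked them with FastQC 0.11.8, aligned them with STAR 2.7.6a and deposited raw counts of read pairs per gene, together with the exon length of each gene. Per the file headers, pairs were counted with featureCounts (Subread 2.0.1) on exons, by strand, at a mapping quality of at least 20. Pairs that mapped to several places, fell in introns or lay in exons shared by genes of 1 strand were not counted. Symbols were taken from RefSeq (Release 6 plus ISO1 MT) by position, for 63 of 63 genes.

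Levels are CPM with TMM library sizes. Each IP was compared with its own input by the edgeR 4.0.16 quasi-likelihood test (R 4.3.3) across all genes that passed filterByExpr (minimum count 10, minimum total 15), with Benjamini-Hochberg adjustment over all of them. A gene was called at an adjusted p below 0.05, the threshold of the study's methods, which name DESeq2. No replicate term was used. Standard errors were derived from each log2 fold change and its F statistic. The difference between the antibodies was tested as an interaction over 12 libraries. IP and input share a number in the labels, so a fit with the number as a block was run beside each test. The deviations of same-numbered libraries from their group means correlated at 0.152 to 0.770 over 11012 genes in all 6 pairs. The lowest value was that of Caper pair 2, and Caper IP 2 correlated more with Caper input 3, at 0.565. For that pair the block therefore rests on the labels alone. DESeq2 1.42.0, other normalisation and filters, exon length offsets, all 12 libraries in 1 fit, other span limits and each library left out were the alternatives. The scripts were tested on simulated data with known changes.

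The genes named are the 6 largest in each direction among those called alike in both IPs, the 3 with the highest input level in each role list, the 4 longest, those called in the difference, and 2 on either side of 120 kb. Pericentric genes are those beyond 22 Mb on 2L, 23 Mb on 3L and 22 Mb on X and before 5 Mb on 2R and 4 Mb on 3R, round positions set after the genes' positions were seen. The genes, role lists and tests were chosen with earlier results of these data known.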

Additional observations from a re-analysis of the deposited data

Results flagged for a closer look

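The change from input differed between the antibodies in 2 of the 53 genes. For *rg* the log2 fold change in the FLAG IP minus that in the Caper IP was 0.79, from 0.11 and -0.68, and it passed the edgeR test of the difference (adjusted p = 0.0286). For *shakB* it was 0.58, from 0.86 and 0.28 (edgeR adjusted p = 0.0457). All 3 FLAG pairs lay above all 3 Caper pairs for both genes. Most exon bases of *rg* are shared with another gene of its strand, and its counts come from the remainder.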

How the results depend on the processing

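Most values moved little, but the counts of genes called were unstable in both IPs and in the difference. Of 12 lower and 2 higher genes in the Caper IP, the replicate block gave 25 and 5, the block with exon length offsets 20 and 11, the block with DESeq2 24 and 4, and all 12 libraries in 1 fit 20 lower. The block without pair 1 gave 27 lower. Leaving out 1 library gave 2 to 20 lower and 0 to 2 higher. In the FLAG IP, leaving out 1 library gave 13 to 20 lower, where all libraries gave 23. The block with exon length offsets gave 32 lower and 12 higher there (60.4% and 22.6%, beside 32.6% and 26.6% of all genes). The difference, with 2 higher and 0 lower, had 4 higher with DESeq2, 0 higher without a count filter, 9 higher and 1 lower with the block, 0 higher and 1 lower with exon length offsets, 8 lower with offsets and block, and 0 to 5 higher with 1 library left out. Of all 11012 genes tested, exon length offsets gave 39 higher and 25 lower, and offsets with the block 355 and 633. Spans over 60 kb gave 6 higher and 43 lower of 223 tested for Caper (2.69% and 19.3%, beside 6.33% and 7.53% of all genes). For FLAG they gave 57 higher and 51 lower of 222 (25.7% and 23%, beside 19.5% and 20.8% of all genes). In the difference 16 were higher (background 0.817%). Spans over 200 kb gave 0 higher and 5 lower of 9 tested for Caper, 0 and 7 of 9 for FLAG, and 0 in the difference.

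The Caper median of -0.28 was -0.22 without a count filter, -0.16 with exon length offsets and -0.16 with offsets and block, -0.35 and -0.34 for the block without pairs 1 and 3, -0.37 to -0.25 with 1 library left out, -0.14 over 60 kb and -0.51 over 200 kb. The FLAG median of -0.16 was -0.30 with offsets, without and with the block, -0.25 to -0.16 with 1 library left out (-0.25 without FLAG input 4), 0.066 over 60 kb and -0.74 over 200 kb. The difference from shorter genes, -0.27 for Caper, was -0.14 in a window of the 25th to 75th percentile, -0.29 against genes of at most 30 kb, -0.60 for pericentric and -0.17 for arm genes, and for FLAG, where it was -0.26, it was -0.14 in the narrower window and -0.68 for pericentric genes. The shorter genes in each of these comparisons came from all positions. The causes were not tested.

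Some single genes changed sign. With 1 library left out, *Rbp6* ranged from -0.12 to 0.12, *mamo* from -0.20 to 0.016, *Glut4EF* from -0.078 to 0.14 and *Svil* from -0.011 to 0.14. For the block without pair 1, *Rbp6* was -0.066 and *Glut4EF* -0.061. With exon length offsets, without and with the block, *Dys* was 0.0059 and 0.0054, *mamo* 0.28 and 0.28, *hth* 0.083 and 0.084 and *fru* 0.075 and 0.068, and in the FLAG IP *rg* was -0.018 and -0.015. Of the calls of named genes, that of *rdgA* in the Caper IP was lost in 11 settings, of *Sema1a* in the FLAG IP in 8, of *bbg* and *luna* in the Caper IP in 7 and 6, of *kirre* and *Sema1a* in the Caper IP in 5 each, of *l(3)80Fg* in the Caper IP and *CadN* in the FLAG IP in 4 each, of *tei* and *rg* in the Caper IP and *mbl* and *luna* in the FLAG IP in 3 each, and of *CadN* in the Caper IP in 1.

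Without the 11 genes that share exon bases, 9 were lower and 2 higher in the Caper IP and 22 and 7 in the FLAG IP. The alternatives on pairs left out, DESeq2 with the block and position were chosen after seeing the data. Of the tested long genes named here, the replicate block also called *Mur2B* and *CG1677* higher and *dpy* lower in the Caper IP (edgeR adjusted p = 0.0273, 0.0204 and 0.0267), and it changed no other call than these and those given with it.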
